A study of Homo sapiens with 16 samples.

Results

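The BCL2 family controls whether a cell dies by the mitochondrial route of apoptosis. The levels of 10 of its genes are described here across 16 RNA libraries from A101D and MeWo, established lines of human melanoma. The 10 genes were taken by symbol (BCL2, BCL2A1, BCL2L1, MCL1, BCL2L11, BBC3, PMAIP1, BAX, BAK1 and BIK), each symbol matched 1 of the 60676 Ensembl gene identifiers in both lines' count tables. A101D is labelled as methionine dependent, which means that its growth is not sustained when homocysteine replaces methionine in the medium. MeWo is described as methionine independent, so that homocysteine rescues it. Each line has 8 libraries of total RNA, which the sample titles number as replicates 1 to 8. Per the culture protocol, cells were kept with methionine at 200 µM or, without it, with homocysteine at 200 µM, and with cystine at 150 µM either way. Which library was grown in which medium is not given in the sources used here. Libraries 1-4 and 5-8 of each line are therefore set against each other only as numbered sets of 4, and a difference between them is a difference between sets of libraries. Each phenotype is represented by 1 line, so line and methionine phenotype cannot be told apart.

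The proteins of this family meet at the outer mitochondrial membrane. BAX and BAK1 form the pores through which cytochrome c escapes, after which caspases are activated. The survival members BCL2, BCL2L1 (BCL-XL), MCL1 and BCL2A1 (BFL-1) bind and restrain the pore formers. The BH3-only members, here BCL2L11 (BIM), BBC3 (PUMA), PMAIP1 (NOXA) and BIK, start the process by occupying the survival members or by acting on BAX and BAK1. In melanocytes and melanoma, BCL2 and BCL2A1 are known targets of the lineage factor MITF, and MCL1 and PMAIP1 proteins pair with each other.

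Total counts ran from 28910881 to 38961862 per library. The first principal component within A101D held 77.7% of the variance and placed libraries 1-4 on 1 side and 5-8 on the other. The first component within MeWo held 25.7% and also ordered the sets without overlap. Of 10 melanocyte lineage markers, 8 in A101D 1-4, 9 in A101D 5-8 and 10 in either MeWo set averaged at least 1 CPM (counts-per-million of the scaled library total), with sums of 2561 to 3487 CPM for A101D libraries against 10511 to 11722 CPM for those of MeWo. TYR reached at most 1.76 CPM in A101D, and TYRP1 at most 1.76 CPM. In the line comparison described below, 8 of the 10 were higher in MeWo and 2 lower (38.5% and 40.5% of all genes). The 2 lower in MeWo were DCT (log2 -1.56) and S100B (log2 -2.21). The 6 leukocyte markers summed to 2.96 to 4.16 CPM over all libraries, with PTPRC at most 0.278 CPM. Genes on the endothelial, epithelial and fibroblast lists were present in A101D through KDR (102 to 129 CPM), KRT18 (107 to 163 CPM) and COL1A2 (581 to 1028 CPM), while PECAM1, EPCAM and DCN stayed at or below 0.680, 0.265 and 0.239 CPM there. The fibroblast list summed to 75.8 to 85.6 CPM over the MeWo libraries. In the line comparison 3 of its 5 genes were higher in MeWo and 2 lower. The higher ones were DCN (log2 6.53), LUM (log2 5.47) and COL1A1 (log2 1.34). The 3 tested genes of the endothelial list and the 3 of the epithelial list were all lower in MeWo. Between the A101D sets the endothelial list went from 105 to 122 CPM up to 137 to 145 CPM (4 of 4 genes rose), the epithelial list from 109 to 114 up to 142 to 167 CPM (3 of 3 tested rose), and the fibroblast list from 919 to 1039 down to 590.0 to 657 CPM (2 rose and 2 fell of 5). Of the melanocyte list 2 rose and 5 fell there. Of all genes tested between the A101D sets, 34.2% rose and 31.4% fell. The part of the marker genes in the results below was not tested.

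In A101D, libraries 5-8 held more RNA of PMAIP1, BCL2L1, BBC3 and MCL1 than libraries 1-4, and less of BAX, BCL2L11 and BAK1. In MeWo the same division gave small differences, led by rises of BBC3 and PMAIP1. BCL2L1 and MCL1 did not pass the test in MeWo. All 10 members passed the filter on low counts. By limma-voom with Benjamini-Hochberg adjustment over all 21569 genes tested, 6 members were higher and 4 lower in A101D 5-8 at an adjusted p under 0.05, against 34.2% of all genes called higher and 31.4% called lower. The median log2 fold change was 0.24 over the members and 0.02 over all genes. In MeWo 2 members were higher and 2 lower in libraries 5-8, against 6.3% and 7.5% of all genes, with medians of -0.06 over the members and 0.003 over all genes. That MeWo count was 2 when replicate 2 or replicate 6 of MeWo was left out, and also without the filter on low counts. In A101D the calls of BCL2, BCL2A1 and BIK were each lost without certain single libraries, as given with these genes below. Each was also lost without the filter on low counts. Those of BCL2A1 and BIK were lost with limma-trend in place of limma-voom, and that of BCL2A1 under other scalings too. These values are given with the dependence on the processing. In bulk RNA, a change in the number of cells that express a gene and a change in RNA per cell cannot be told apart. The labels do not say whether libraries came from separate cultures, so these p-values measure the spread between libraries, which may be technical.

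**Figure D1:**
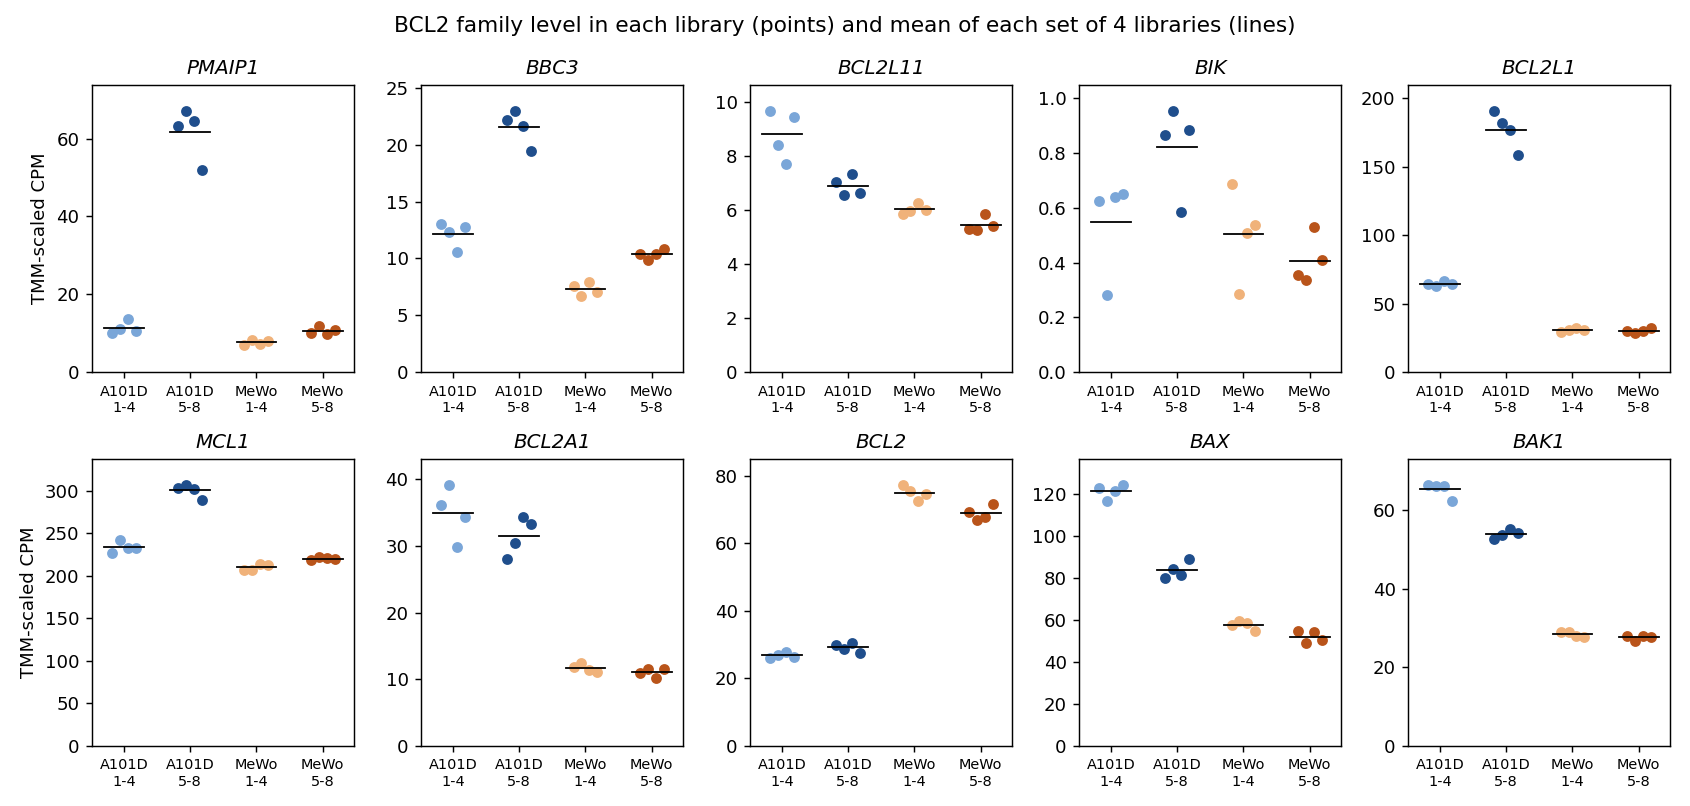
Level of each BCL2 family gene (TMM-scaled CPM, linear axis from 0) in the 16 libraries, with points for libraries and a line for the mean of each set of 4. PMAIP1 and BCL2L1 stand far higher in A101D 5-8 than in the other 3 sets, BCL2 is higher in every MeWo library than in every A101D library, and BIK stays under 1 CPM throughout.

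The start regions of the genes with the largest rises and the largest fall in A101D are shown because the members that moved together can be compared there at the level of sequence. RefSeq start windows (GRCh38.p14) were found for 8 of the 10 members. Printed are the 250 bases before the RefSeq start of PMAIP1 (chr18:59899746-59899995, plus strand), BCL2L1 (chr20:31723964-31724213, minus strand, the more distal of its 2 windows) and BAX (chr19:48954625-48954874, plus strand), 5′ to 3′ on the gene's strand. The GENCODE genes start 48, 26 and 60 bases further upstream, inside these windows. Capitals mark matches on either strand to any of the 4 motifs named in the next paragraph.
PMAIP1: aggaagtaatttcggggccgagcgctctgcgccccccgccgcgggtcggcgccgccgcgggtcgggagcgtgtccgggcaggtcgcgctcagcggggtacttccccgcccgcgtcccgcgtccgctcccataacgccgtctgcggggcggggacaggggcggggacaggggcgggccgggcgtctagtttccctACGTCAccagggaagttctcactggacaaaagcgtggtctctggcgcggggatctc
BCL2L1: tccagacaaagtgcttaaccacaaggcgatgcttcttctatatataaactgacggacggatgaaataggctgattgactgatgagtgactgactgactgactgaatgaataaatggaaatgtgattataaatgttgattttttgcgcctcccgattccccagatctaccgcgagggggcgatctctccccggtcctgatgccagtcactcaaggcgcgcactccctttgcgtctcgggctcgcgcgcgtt
BAX: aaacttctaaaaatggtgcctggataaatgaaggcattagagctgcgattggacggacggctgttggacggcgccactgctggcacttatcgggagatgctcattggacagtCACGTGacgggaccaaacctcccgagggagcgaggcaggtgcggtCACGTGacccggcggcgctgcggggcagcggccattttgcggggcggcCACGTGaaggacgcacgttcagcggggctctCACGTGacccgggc

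TGACGT, the core of the cAMP response element that ATF factors bind, was found once among the members, in PMAIP1 (as its reverse complement, 56 bases before the start), and in 7.10% of 35116 RefSeq windows of this length. CACGTG, the E-box of MYC and of MITF, was found 4 times in BAX, at 138, 93, 45 and 14 bases before the start, and once in BBC3, at 232 bases. It was found in 6.34% of windows. TGATGNAA, the composite element of C/EBP and ATF4, was found in BCL2A1, 63 bases before the start, and in 3.14% of windows, and CATGTG, the other MITF motif, in BCL2A1 at 25 bases and in 9.42% of windows. The GENCODE gene BCL2A1 starts 250 bases upstream of this RefSeq start, so both BCL2A1 matches lie inside the gene as GENCODE annotates it. So do the BAX matches at 45 and 14 bases. The BCL2L1 window held none of the 4 motifs. A match is a description of these letters and not a shown binding site, and a window without a match says nothing of more distant elements.

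PMAIP1 (ENSG00000141682, chr18:59899948-59904306 in GRCh38, as for the genes below) encodes NOXA, a BH3-only protein that binds MCL1 and BCL2A1. Its level in A101D was 10.2, 11.2, 13.7 and 10.6 CPM in libraries 1 to 4 and 63.3, 67.1, 64.5 and 52.0 CPM in libraries 5 to 8. The sets did not overlap, and the lowest library of the second set (replicate 8) was still far above the first set. PMAIP1 rose 5.47-fold (log2 fold change 2.45 ± 0.09 SE, adjusted p = 2.01e-17), which placed it at percentile 98.1 of all genes tested by the size of the change. In MeWo it was 7.04, 8.14, 7.23 and 8.0 CPM in libraries 1 to 4 and 9.94, 11.9, 9.81 and 10.7 CPM in libraries 5 to 8. The MeWo sets did not overlap either, and the second set came only near the level of A101D 1-4. The MeWo rise was 1.40-fold (log2 0.48 ± 0.12, adjusted p = 0.00994), and its adjusted p was 0.0510 without the filter on low counts. The 2 rises differed by 1.97 ± 0.15 on the log2 scale, the larger in A101D (adjusted p = 9.97e-11).

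BBC3 (ENSG00000105327, chr19:47220822-47232766) encodes PUMA, which binds all of the survival members. In A101D its level was 13.1, 12.3, 10.6 and 12.8 CPM in libraries 1 to 4 and 22.2, 23.0, 21.7 and 19.4 CPM in libraries 5 to 8. In MeWo it was 7.61, 6.69, 7.92 and 7.01 CPM in libraries 1 to 4 and 10.4, 9.90, 10.4 and 10.8 CPM in libraries 5 to 8. Neither pair of sets overlapped, and the upper MeWo set lay near the lower A101D set. BBC3 rose 1.76-fold in A101D (log2 0.81 ± 0.07, adjusted p = 3.86e-14). It rose 1.42-fold in MeWo (log2 0.51 ± 0.08, adjusted p = 3.98e-05), and was the member with the smallest p there. The difference between the rises was 0.30 ± 0.11 on the log2 scale (adjusted p = 0.0159), and 0.27 with an adjusted p of 0.0511 without MeWo replicate 3.

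BCL2L11 (ENSG00000153094, chr2:111119378-111168447) encodes BIM, an activator of BAX and BAK1. Its level in A101D was 9.66, 8.41, 7.69 and 9.43 CPM in libraries 1 to 4 and 7.05, 6.57, 7.32 and 6.62 CPM in libraries 5 to 8. The sets lay next to each other without overlap, and BCL2L11 fell to 0.778 of its level (log2 -0.36 ± 0.08, adjusted p = 0.000132). In MeWo it was 5.86, 5.96, 6.28 and 6.0 CPM, then 5.31, 5.24, 5.83 and 5.40 CPM. The MeWo sets did not overlap, but the difference of -0.15 ± 0.09 did not pass the test (adjusted p = 0.339). Nor did the difference between the lines (0.22 ± 0.12, adjusted p = 0.142). BCL2L11 shares 727 bases of exon with the long noncoding gene MIR4435-2HG on the opposite strand, which was at 44.7 to 61.1 CPM over all libraries. The kit marks strand, the strand setting of the counting is not given in the sources used here, and the part of this overlap in the BCL2L11 counts was not tested.

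BIK (ENSG00000100290, chr22:43110748-43129712), which encodes a BH3-only protein of the endoplasmic reticulum, was the rarest member, with 9 to 36 counts per library. In A101D it was at 0.625, 0.280, 0.641 and 0.652 CPM in libraries 1 to 4 and 0.865, 0.954, 0.586 and 0.886 CPM in libraries 5 to 8. In MeWo it was at 0.687, 0.284, 0.507 and 0.537 CPM, then 0.354, 0.335, 0.530 and 0.410 CPM. The sets overlapped in both lines. The A101D difference of 0.62 ± 0.27 on the log2 scale had an adjusted p of 0.0410. It dropped to 0.34 with an adjusted p of 0.253 without A101D replicate 2, and its adjusted p was 0.0652, 0.0992 and 0.0690 without A101D replicates 5, 6 and 8. The MeWo difference was -0.27 ± 0.31 (adjusted p = 0.658).

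Among the survival members, BCL2L1 (ENSG00000171552, chr20:31664452-31723989) differed most. In A101D it was at 64.5, 63.1, 66.1 and 64.4 CPM in libraries 1 to 4 and 191, 182, 177 and 159 CPM in libraries 5 to 8. The first set was tight and the second lay wholly above it. Replicate 8 was the lowest of the 4, as it was for PMAIP1, BBC3, MCL1 and BCL2. BCL2L1 rose 2.73-fold (log2 1.45 ± 0.04, adjusted p = 3.12e-27). In MeWo it was at 29.1, 30.8, 31.9 and 30.4 CPM, then 30.1, 28.2, 30.1 and 32.2 CPM. The MeWo sets overlapped and the estimate was -0.02 ± 0.06 (adjusted p = 0.911), with the opposite sign on total counts (0.02) and without MeWo replicate 3 (0.0044) or 6 (0.005). The response differed between the lines by 1.47 ± 0.07 on the log2 scale, higher in A101D (adjusted p = 6.59e-20). The antisense gene ABALON overlaps BCL2L1 over 1424 bases of exon and was at 1.65 to 2.60 CPM in libraries 1-4 of A101D and 6.21 to 7.98 CPM in its libraries 5-8, a small amount beside BCL2L1 itself. In MeWo ABALON was at 1.92 to 2.69 CPM. The strand setting of the counting is not given, and the part of the ABALON overlap in the BCL2L1 counts was not tested.

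MCL1 (ENSG00000143384, chr1:150574551-150579738) encodes a short-lived survival protein that neurons, haematopoietic cells and many tumours depend on. In A101D it was at 227, 242, 232 and 233 CPM in libraries 1 to 4 and 303, 307, 303 and 289.9 CPM in libraries 5 to 8. The sets did not overlap, and MCL1 rose 1.29-fold (log2 0.37 ± 0.03, adjusted p = 3.02e-14). In MeWo it was at 207, 207, 214 and 212 CPM, then 219, 223, 221 and 219.7 CPM. The MeWo sets did not overlap, yet the difference of 0.07 ± 0.03 did not pass the test (adjusted p = 0.117). It did pass with upper-quartile factors (0.08, adjusted p = 0.0469) and on total counts (0.11, adjusted p = 0.00999). The responses of the lines differed by 0.29 ± 0.04 (adjusted p = 1.28e-07).

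BCL2A1 (ENSG00000140379, chr15:79960889-79971446) and BCL2 (ENSG00000171791, chr18:63123346-63320128), the members known as MITF targets, differed little between sets. BCL2A1 was at 36.2, 39.2, 29.9 and 34.4 CPM in A101D libraries 1 to 4 and 28, 30.4, 34.4 and 33.3 CPM in libraries 5 to 8. These sets overlapped. The difference of -0.15 ± 0.06 had an adjusted p of 0.0338, which rose to 0.0989, 0.171, 0.205 and 0.112 without A101D replicates 1, 2, 5 and 6, and its size was -0.09 without replicate 2 or 5. In MeWo BCL2A1 was at 11.8, 12.4, 11.3 and 11.1 CPM, then 10.9, 11.5, 10.2 and 11.5 CPM, and these sets overlapped too (-0.08 ± 0.09, adjusted p = 0.657).

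BCL2 was at 26.1, 26.96, 27.7 and 26.4 CPM in A101D libraries 1 to 4 and 29.97, 28.7, 30.4 and 27.5 CPM in libraries 5 to 8. The sets overlapped at their edge, and the difference of 0.12 ± 0.05 (adjusted p = 0.0216) did not pass without A101D replicate 1, 4 or 7 (adjusted p = 0.0619, 0.0522 and 0.0629). In MeWo BCL2 was at 77.3, 75.4, 72.6 and 74.5 CPM, then 69.4, 66.8, 67.7 and 71.7 CPM, with no overlap. The MeWo fall of 0.12 ± 0.04 (adjusted p = 0.0224) did not pass without MeWo replicate 1, 2, 6 or 7 (adjusted p = 0.0952, 0.0575, 0.0648 and 0.0738). The 2 responses had opposite signs and differed by 0.24 ± 0.06 (adjusted p = 0.000753), although each was small.

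Both pore formers, BAX (ENSG00000087088, chr19:48954815-48961798) and BAK1 (ENSG00000030110, chr6:33572547-33580293), fell in A101D. BAX was at 123, 116, 121 and 124 CPM in A101D libraries 1 to 4 and 79.8, 84.2, 81.2 and 89.0 CPM in libraries 5 to 8. The second set lay wholly below the first, at 0.689 of its level (log2 -0.54 ± 0.04, adjusted p = 1.68e-15). In MeWo BAX was at 57.5, 59.6, 58.4 and 54.6 CPM, then 54.7, 48.9, 54.0 and 50.5 CPM. These sets overlapped by 1 library each, and the fall of 0.15 ± 0.04 (adjusted p = 0.0188) did not pass without MeWo replicate 2, 3, 6 or 8 (adjusted p = 0.0779, 0.0584, 0.0876 and 0.0708). The responses differed by 0.39 ± 0.06 (adjusted p = 3.64e-07), with the larger fall in A101D.

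BAK1 was at 66.5, 66.1, 66.2 and 62.3 CPM in A101D libraries 1 to 4 and 52.6, 53.6, 55.2 and 54.2 CPM in libraries 5 to 8. The second set lay below the first without overlap (log2 -0.28 ± 0.04, adjusted p = 1.81e-08). In MeWo BAK1 was at 28.9, 28.9, 27.9 and 27.6 CPM, then 28.04, 26.7, 27.9 and 27.8 CPM, and these sets overlapped (-0.04 ± 0.04, adjusted p = 0.652). The difference between the lines' responses was 0.24 ± 0.06 (adjusted p = 0.000743).

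**Figure D2:**
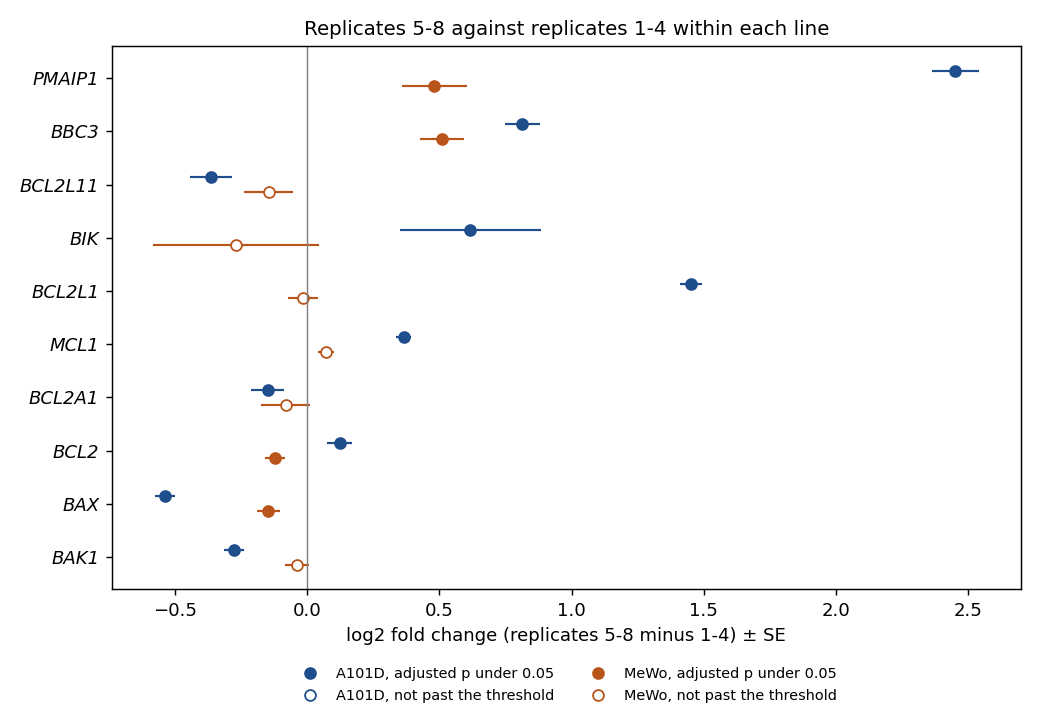
Log2 fold change of libraries 5-8 over libraries 1-4 (horizontal axis, with SE bars) for each member in A101D and MeWo, filled where the adjusted p was under 0.05. In A101D PMAIP1 (2.45) and BCL2L1 (1.45) lie far to the right and BAX (-0.54) to the left, while the MeWo values lie between -0.27 and 0.51; the MeWo value of BCL2L1 changes sign on total counts and without MeWo replicate 3 or 6.

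Tested directly, the set response differed between the lines for 7 of the 10 members. Taken as MeWo minus A101D, 2 of them (BAX and BAK1) were higher and 5 (PMAIP1, BCL2L1, BBC3, MCL1 and BCL2) lower, against 25.1% of all genes called higher and 24.0% called lower. The count was 6 without MeWo replicate 3 and 8 without A101D replicate 7 or MeWo replicate 2, where BIK also passed (adjusted p = 0.0313 and 0.0202). Against a fold change of 1.5 in place of 0, PMAIP1, BCL2L1 and BBC3 passed in A101D, among 3912 of all 21569 genes tested. PMAIP1 and BCL2L1 passed for the difference between lines, among 2145 of the 21569. No member passed in MeWo, where 4 genes in all did.

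Between the lines, MeWo held more BCL2 RNA than A101D and less of the other 9 members, although the estimates of MCL1 and BCL2L11 had the opposite sign under 1 other scaling, given with their values. Over all 8 libraries of each line, with 19247 genes tested, 1 member was higher and 9 were lower in MeWo, against 38.5% of genes called higher and 40.5% called lower. The member median was -0.89 on the log2 scale and the median of all genes -0.02. BCL2 ran from 26.1 over a median of 27.6 to 30.4 CPM in A101D and from 66.8 over 72.1 to 77.3 CPM in MeWo. Every MeWo library was above every A101D library, and BCL2 was 2.57-fold higher in MeWo (log2 1.36 ± 0.04, adjusted p = 9.16e-15). BCL2A1 ran from 28 CPM over 33.8 to 39.2 CPM in A101D and from 10.2 over 11.4 to 12.4 CPM in MeWo. The lines did not overlap, and BCL2A1 was 2.91-fold lower in MeWo (log2 -1.54 ± 0.07, adjusted p = 1.12e-12). BCL2 and BCL2A1 had opposite directions between the lines. MITF itself was at 143 to 238 CPM over the A101D libraries and 514 to 597 CPM over the MeWo libraries. Its line difference was 1.64 ± 0.10 on the log2 scale, higher in MeWo (adjusted p = 5.76e-11). The part of MITF in the levels of these 2 genes was not tested.

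Over all libraries BCL2L1 was lower in MeWo by a log2 difference of -1.82 ± 0.28 (adjusted p = 1.06e-05), PMAIP1 by -1.57 ± 0.51 (adjusted p = 0.00933) and BBC3 by -0.90 ± 0.18 (adjusted p = 0.000257). The lines overlapped for PMAIP1, BBC3 and BIK. BAK1 was lower by -1.08 ± 0.06 and BAX by -0.88 ± 0.10, each without overlap. Because the A101D sets stood apart, the line difference was also estimated within each set. In libraries 1-4, 1 member was higher and 8 lower in MeWo (37.0% and 42.4% of all genes), and in libraries 5-8, 1 was higher and 9 lower (39.7% and 44.5%). BCL2L1 was lower in MeWo by a log2 difference of -1.08 ± 0.05 in libraries 1-4 and -2.55 ± 0.05 in libraries 5-8. PMAIP1 was lower by -0.56 ± 0.12 and -2.53 ± 0.09, the first of which was lost under the other scaling given with MCL1. For these 2 genes the size of the line difference thus depended on the set. The line difference of BCL2 was 1.49 ± 0.04 and 1.24 ± 0.04, and that of BCL2A1 was -1.58 ± 0.08 and -1.51 ± 0.08. For BCL2A1 the change between sets did not pass the test (0.07 ± 0.11, adjusted p = 0.645).

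BAX was lower in MeWo by -1.08 ± 0.04 in libraries 1-4 and -0.69 ± 0.04 in libraries 5-8, and BAK1 by -1.20 ± 0.04 and -0.97 ± 0.04. BBC3 was lower by -0.74 ± 0.08 and -1.05 ± 0.07. The adjusted p of each of these was at most 1.56e-10. MCL1 was lower by -0.15 ± 0.03 and -0.45 ± 0.03, and BCL2L11 by -0.55 ± 0.08 and -0.34 ± 0.09, but both directions depended on the scaling. Over all libraries the values were -0.30 ± 0.07 for MCL1 (adjusted p = 0.000748) and -0.44 ± 0.09 for BCL2L11 (adjusted p = 0.000235). With upper-quartile factors over all genes with a count, a setting chosen after seeing the data that moved the median of all genes in the line comparison by 0.50, MCL1 was higher in MeWo by 0.20 over all libraries (adjusted p = 0.00333) and by 0.32 in libraries 1-4 (adjusted p = 6.03e-09), and its estimate in libraries 5-8 was 0.07 (adjusted p = 0.115). The BCL2L11 estimates under that setting did not pass, at 0.06 over all libraries (adjusted p = 0.617), -0.08 in libraries 1-4 (adjusted p = 0.389) and 0.18 in libraries 5-8 (adjusted p = 0.0581). The PMAIP1 difference in libraries 1-4 did not pass there either (-0.09, adjusted p = 0.382), and the BAX difference in libraries 5-8 was -0.16 in place of -0.69. BIK did not differ past the threshold in libraries 1-4 (-0.11 ± 0.30, adjusted p = 0.751), and was lower in MeWo in libraries 5-8 (-0.99 ± 0.28, adjusted p = 0.00153). Its estimate in libraries 1-4 was 0.13 without MeWo replicate 2 and 0.36 with those upper-quartile factors, under which libraries 5-8 did not pass (-0.47, adjusted p = 0.106). Over all libraries BIK was lower by -0.56 ± 0.24 (adjusted p = 0.0405), and that call was lost without any 1 of A101D replicates 3 to 8 or MeWo replicates 2, 5, 6 and 8, with adjusted p up to 0.0916.

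**Figure D3:**
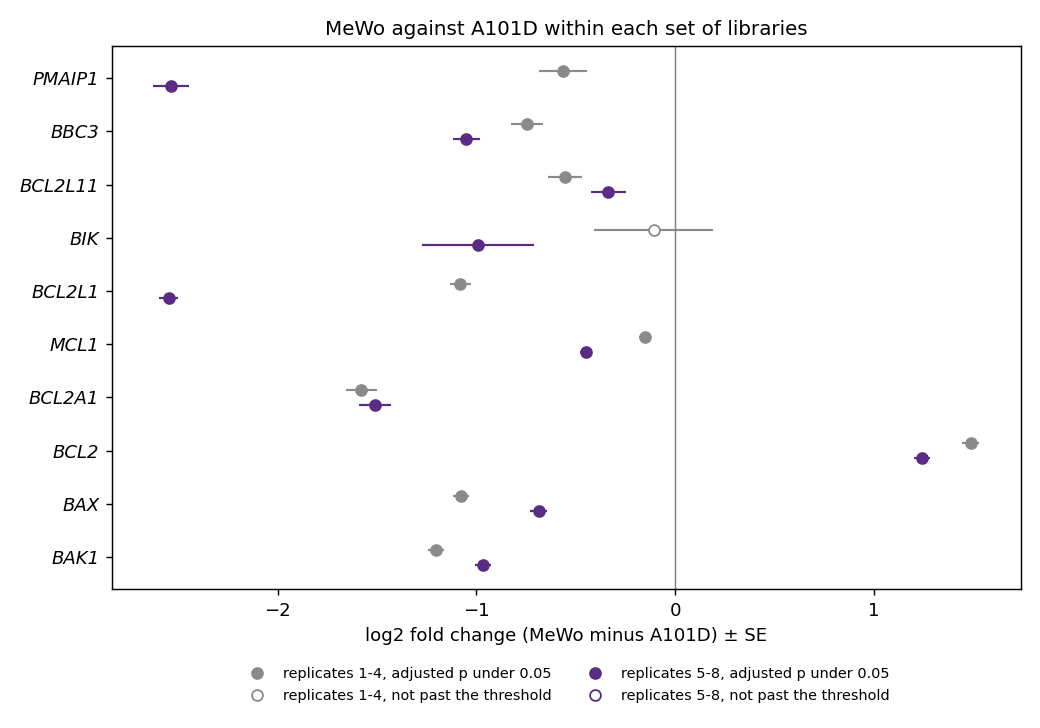
Log2 fold change of MeWo over A101D (horizontal axis, with SE bars) within libraries 1-4 and within libraries 5-8, filled where the adjusted p was under 0.05. BCL2 lies to the right in both sets, the other members lie to the left, and PMAIP1 and BCL2L1 lie much further left in libraries 5-8 (-2.53 and -2.55); MCL1 changes direction in both sets, BCL2L11 in libraries 5-8 and BIK in libraries 1-4 with upper-quartile factors over all genes with a count, and BIK in libraries 1-4 also without MeWo replicate 2.

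To compare members with each other, levels were divided by the union of each gene's annotated exons and are given as CPM per kilobase. MCL1 was the most abundant member in all 4 sets, at 53.5 ± 1.4, 68.8 ± 1.7, 48.0 ± 0.82 and 50.4 ± 0.41 (SD, n = 4) in A101D 1-4, A101D 5-8, MeWo 1-4 and MeWo 5-8. In A101D 1-4 the order after MCL1 was BAX (46.8), BCL2A1 (32.1), BAK1 (29.5), BCL2L1 (19.5), PMAIP1 (5.11), BBC3 (3.83), BCL2 (2.28), BCL2L11 (1.32) and BIK (0.577). Of these neighbours only BCL2A1 and BAK1 overlapped in their library ranges. In A101D 5-8 BCL2L1 stood second (53.4 ± 4.1) and PMAIP1 at place 5 (27.6 ± 3.0), and the neighbours from BAX (32.3) over BCL2A1 (28.9) and PMAIP1 to BAK1 (24.4) overlapped, as did BCL2L11 and BIK. In MeWo the order was MCL1, BAX, BAK1, BCL2A1, BCL2L1, BCL2, PMAIP1, BBC3, BCL2L11 and BIK in both sets, and only BCL2A1 and BCL2L1 overlapped, in libraries 5-8. With the longest annotated transcript as the length, BAX stood above MCL1 in A101D 1-4, BBC3 above PMAIP1 in all sets but A101D 5-8, PMAIP1 above BCL2A1 in A101D 5-8, and BCL2L1 above BCL2A1 in MeWo.

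The makeup of each role differed between sets and lines on this per-kilobase scale. MCL1 made up 49.9% ± 1.3 (SD, n = 4) of the 4 survival members in A101D 1-4, 44.8% ± 0.45 in A101D 5-8, 64.6% ± 0.78 in MeWo 1-4 and 66.8% ± 0.92 in MeWo 5-8. BCL2L1 made up 18.2% ± 1.0, 34.7% ± 1.9, 12.4% ± 0.35 and 12.0% ± 0.58 in the same order. The share of BCL2L1 was therefore highest in A101D 5-8, where that of BCL2A1 was 18.9% ± 1.9 against 29.8% ± 2.3 in A101D 1-4. BCL2 made up 2.12% ± 0.11 and 1.61% ± 0.04 in A101D and 8.57% ± 0.30 and 7.75% ± 0.20 in MeWo. Among the BH3-only members, PMAIP1 made up 47.0% ± 5.5 in A101D 1-4, 76.0% ± 1.2 in A101D 5-8, 47.7% ± 3.9 in MeWo 1-4 and 51.1% ± 3.1 in MeWo 5-8. BAX made up 61.3% ± 1.2, 57.0% ± 1.1, 63.4% ± 0.65 and 61.7% ± 0.86 of the pore formers.

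Summed per kilobase, the survival members came to 107 ± 4.0 CPM in A101D 1-4 and 154 ± 4.4 CPM in A101D 5-8, and to 74.4 ± 0.68 and 75.5 ± 0.86 CPM in MeWo. The BH3-only members summed to 10.8 ± 0.36 and 36.3 ± 3.5 CPM in A101D, and to 7.13 ± 0.14 and 9.25 ± 0.31 CPM in MeWo. The pore formers summed to 76.4 ± 1.1 and 56.7 ± 1.7 CPM in A101D, and to 35.04 ± 1.0 and 32.6 ± 1.3 CPM in MeWo. In A101D, the sums of the listed survival and BH3-only members were thus both higher in libraries 5-8 and that of the pore formers lower. The BH3-only rise was mostly that of PMAIP1, from 5.11 to 27.6 CPM per kilobase, while BCL2L11 fell. BID, a BH3-only gene outside this sum, also fell in A101D, as given below. These are sums of RNA and say nothing of protein. With the longest transcript as the length, 31 of 40 shares moved by more than their SD, and the BAX share rose most, to 71.6% to 76.8% in the 4 sets.

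**Figure D4:**
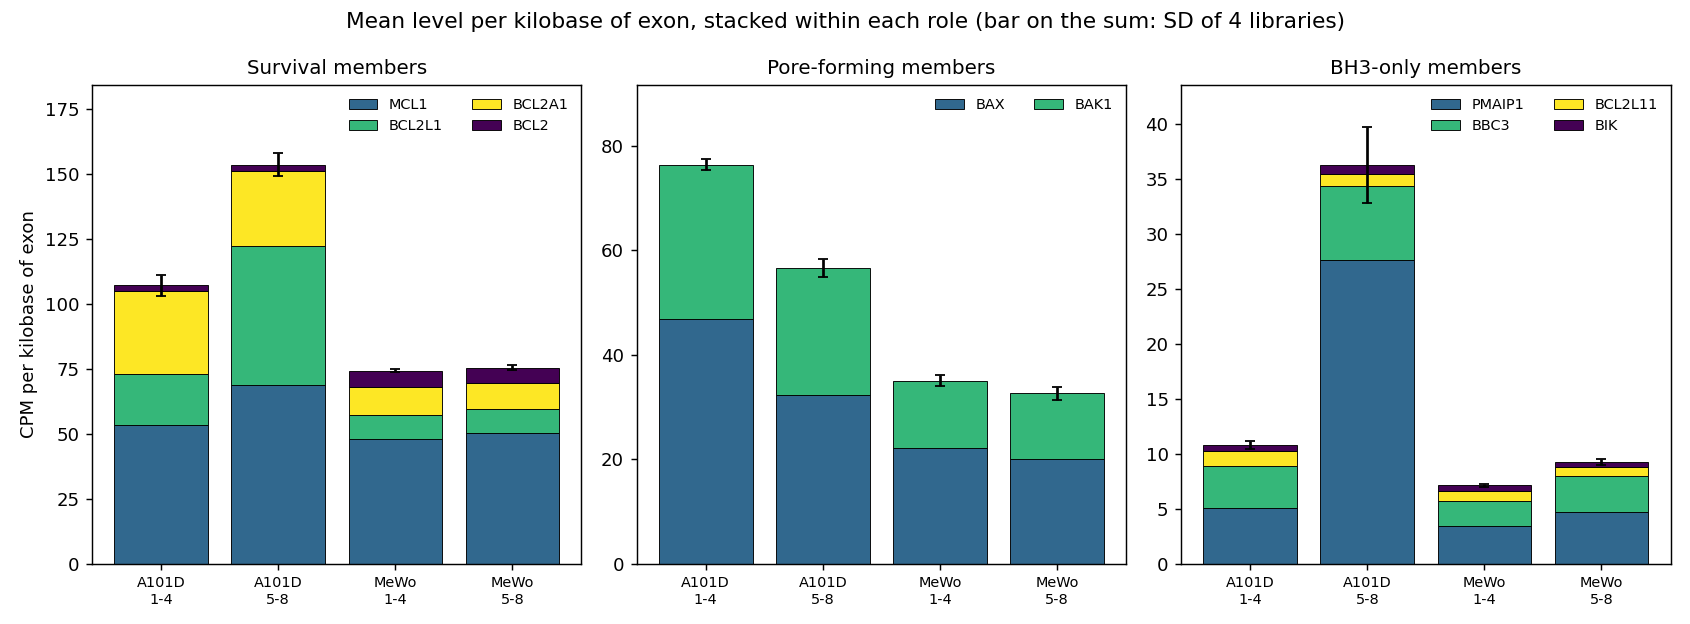
Mean level per kilobase of exon (CPM, from 0), stacked by gene within the survival, pore-forming and BH3-only members for each set of 4 libraries, with the SD of the sum over 4 libraries. The A101D 5-8 bar is the tallest for the survival (154 CPM) and BH3-only (36.3 CPM) members, and the A101D 1-4 bar for the pore formers (76.4 CPM).

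Other genes of the family give the wider context. Of 11 listed, 10 were tested between sets. In A101D 4 of these rose, 2 fell and 4 did not pass (34.2% of all genes rose and 31.4% fell), with a median log2 fold change of 0.16. In MeWo 0 of 10 passed by limma-voom (6.3% of all genes rose and 7.5% fell), with a median of -0.003, and 2 had an unadjusted p under 0.05 (BID at -0.12 ± 0.05 and BMF at 0.20 ± 0.08). BID, the BH3-only protein that caspase-8 cleaves, fell in A101D from 52.8 to 59.6 CPM in libraries 1-4 to 26.2 to 30.8 CPM in libraries 5-8 (log2 -0.94 ± 0.05, adjusted p = 5.35e-19). BCL2L12 fell by 0.82 ± 0.06. The survival member BCL2L2 (BCL-W) rose by 0.56 ± 0.04, BCL2L13 by 0.61 ± 0.03 and the BH3-only HRK by 0.89 ± 0.12, the last from 2.03 to 2.53 CPM to 3.93 to 4.66 CPM. BCL2L15, which rose by 1.40 ± 0.22, was at 0.374 to 1.75 CPM over the A101D libraries. BOK, BAD, BMF and BCL2L14 did not pass. The responses differed between the lines for 7 of the 10, 3 higher and 4 lower as MeWo minus A101D (25.1% and 24.0% of all genes).

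Between the lines, 2 of 9 tested genes of that wider list were higher in MeWo and 4 lower over all libraries (38.5% and 40.5% of all genes). BAD, a BH3-only protein inactivated by survival kinases, ranged over 15.3 to 17.9 CPM across A101D and over 25.3 to 31.0 CPM across MeWo libraries (log2 0.79 ± 0.05, adjusted p = 1.97e-10). BMF, a BH3-only protein, ranged over 12.0 to 14.2 CPM across A101D and over 5.77 to 7.62 CPM across MeWo libraries (log2 -0.93 ± 0.06, adjusted p = 2.23e-10). BCL2L15 was lower in MeWo by -1.37 ± 0.32. BCL2L10 was not tested, with at most 0.106 CPM in A101D and no counts in MeWo.

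The 23 listed genes of the later steps, from cytochrome c to caspases, their inhibitors and the death receptors, were all tested. In A101D 8 rose and 12 fell in libraries 5-8 (median -0.21), against 34.2% and 31.4% of all genes. In MeWo 2 rose and 1 fell (median 0), against 6.3% and 7.5%. BIRC5, survivin, which is also a mitotic protein, fell in A101D from 99.6 to 105 CPM to 28.5 to 31.9 CPM (log2 -1.77 ± 0.04, adjusted p = 4.32e-31) and by 0.14 ± 0.03 in MeWo. The receptor-proximal CASP10 rose by 0.98 ± 0.07 in A101D. In MeWo the inhibitor BIRC7 rose by 0.35 ± 0.04 and the caspase-8 regulator CFLAR by 0.21 ± 0.05. TNFRSF10B, the death receptor DR5, was at 225 to 229 CPM in A101D 1-4, 351 to 404 CPM in A101D 5-8, and 111 to 120 CPM over all MeWo libraries. It rose in A101D by 0.74 ± 0.03 (adjusted p = 9.16e-22) and its MeWo estimate was 0.00 ± 0.04 (adjusted p = 1.00). The responses differed by 0.74 ± 0.05 (adjusted p = 1.66e-15), and DR5 and BCL2L1 thus both rose more in A101D.

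Between the lines 7 of these 23 genes were higher in MeWo and 14 lower (median -0.35), against 38.5% and 40.5% of all genes. BIRC7 ranged over 2.29 to 3.41 CPM across A101D and over 117 to 160 CPM across MeWo libraries (log2 5.67 ± 0.13, adjusted p = 5.32e-17). The death receptor TNFRSF10A ranged over 16.7 to 26.2 CPM across A101D and over 0.539 to 1.09 CPM across MeWo libraries (log2 -4.83 ± 0.22), and CASP10 at 8.51 to 19.1 and 0.257 to 0.781 CPM (log2 -4.79 ± 0.37).

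The 17 listed genes known to regulate members, by transcription or by protein turnover, were also all tested. In A101D 7 rose and 7 fell in libraries 5-8 (median -0.07), beside the same 34.2% and 31.4% of all genes. In MeWo 4 rose and 3 fell (median -0.02), beside 6.3% and 7.5%. ATF4, the transcription factor of the integrated stress response, was at 313 to 333 CPM in libraries 1-4 of A101D and 788 to 828 CPM in its libraries 5-8 (log2 1.35 ± 0.03, adjusted p = 6.09e-32). In MeWo ATF4 was at 320 to 328 CPM and then 508 to 563 CPM (log2 0.73 ± 0.03, adjusted p = 1.29e-20), with a line difference of 0.03 ± 0.03 in libraries 1-4 (adjusted p = 0.449) and -0.59 ± 0.03 in libraries 5-8 (adjusted p = 8.70e-22). DDIT3 (CHOP), known to act on BCL2L11, BBC3 and TNFRSF10B, rose by 1.66 ± 0.06 in A101D and 0.47 ± 0.05 in MeWo. ATF3 rose by 1.12 ± 0.05 and 0.33 ± 0.11. The rise of ATF4, DDIT3 and ATF3 was larger in A101D, by 0.62 ± 0.04, 1.19 ± 0.08 and 0.80 ± 0.12 (adjusted p of at most 8.16e-07).

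E2F1, a cell-cycle factor that can also induce BH3-only genes, fell by 2.36 ± 0.05 in A101D and by 0.13 ± 0.04 in MeWo. These values stand beside the members' values, and the part of any regulator in them was not tested.

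Over all libraries 9 regulators were higher in MeWo and 4 lower (median 0.37), beside 38.5% and 40.5% of all genes. MYC was higher by 3.01 ± 0.16 and MITF by the 1.64 given above, and ATF3 was lower by -2.57 ± 0.27.

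**Figure D5:**
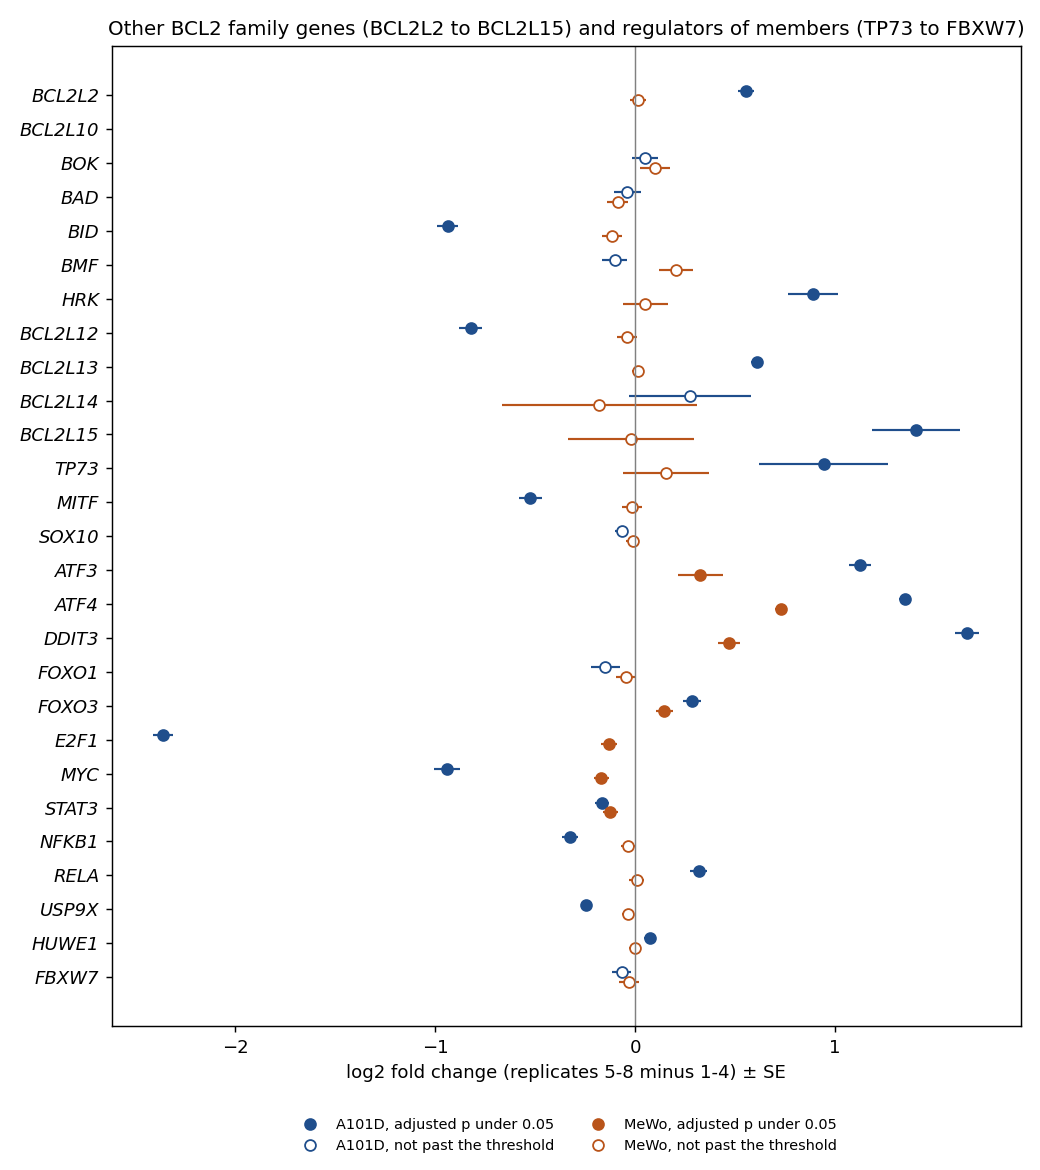
Log2 fold change of libraries 5-8 over libraries 1-4 (horizontal axis, with SE bars) for other BCL2 family genes and for 16 of the regulators of members, filled where the adjusted p was under 0.05; BCL2L10 was not tested. In A101D ATF4, DDIT3 and ATF3 lie at 1.35, 1.66 and 1.12 and E2F1 at -2.36, and the MeWo values of the same genes are closer to 0.

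The genes whose profiles were most like those of the members were sought over the 16 libraries by the root mean square difference of mean-centred log2 CPM among 15041 other genes. They were HULC (0.202) and NUPR1 (0.223) for PMAIP1, IER3 (0.128) and AJUBA (0.133) for BCL2L1, and DDR2 (0.140) and LAMTOR2 (0.149) for BBC3. They were POP4 (0.034) and NOP10 (0.036) for MCL1, USP32 (0.052) and TEX2 (0.058) for BCL2, and DNAJB6 (0.102) and ABCF2 (0.103) for BCL2A1. For BAX they were EIF3B (0.049) and TRIP6 (0.055), for BAK1 TRAPPC10 (0.037) and SPATA13 (0.052), and for BCL2L11 PLEKHG2 (0.068) and AGAP1 (0.074). No member was among the nearest 2 genes of another member. BIK, the rarest member, had the most distant neighbours, with PIP5KL1 at 0.269 and ENSG00000286207 at 0.309.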

How the data were processed

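RNA was sequenced from 16 libraries, 8 per line. The deposited columns hold an Ensembl identifier and a whole-number count in 1 cell, counted over exons from 1 sorted alignment per library, per the file headers. Trimmomatic 0.39-1, STAR 2.7.1a, featureCounts 2.0.0 and the build GRCh38 are named in the submitters' processing notes. The sources used here give neither the annotation release nor the strand setting. The kit, TruSeq Stranded Total RNA per the labels' protocols, marks strand. No column was left out.

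Symbols, exon lengths and overlaps came from GENCODE release 29 (GRCh38), where 58503 of 60676 identifiers were found. Counts were scaled by TMM factors, computed over the 19247 genes with 10 counts at the median depth in at least 8 libraries and 15 in all. CPM values are counts-per-million of those scaled totals. The cells were split into identifier and count, and these counts were analysed by limma-voom 3.58.1 (R 4.3.3) with robust empirical Bayes moderation. No count model was fitted. The line comparison took all libraries of each line, and the other 5 comparisons came from 1 fit with 4 means (line by set) over 21569 genes with that minimum in at least 4 libraries. P-values were adjusted by Benjamini-Hochberg over all genes tested, with a threshold of 0.05. The procedure was tested on simulated data. Figures were drawn with matplotlib 3.10.9.

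All 10 members are named whatever their values. Of the lists of later steps and regulators, the 3 genes with the largest significant change per comparison are named, and the genes a result turns on. Beyond that rule, TNFRSF10B was named after its values were seen. Some listed genes that the rule would name are not reported here. The members, the lists and the division into libraries 1-4 and 5-8 were chosen with earlier results of these data known. The check given with the sensitivity results did not show that replicates with the same number pair the lines, and could not exclude it. The precision of each library is set by its count, and BIK, with 9 to 36 counts, is the least precise.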

Additional observations from a re-analysis of the deposited data

Results flagged for a closer look

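Of 40 groups of 4 libraries (10 members in 4 sets), 2 had a library far from the other 3 by Dixon's criterion at the 95% level, where chance gives about 2. BAK1 was at 62.3 CPM in A101D replicate 4 and 66.1 to 66.5 CPM in A101D replicates 1 to 3. BIK was at 0.280 CPM in A101D replicate 2 and 0.625 to 0.652 CPM in replicates 1, 3 and 4. The call of its A101D difference between sets was lost without that library, and also without A101D replicate 5, 6 or 8, as given above.

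The set response differed between the lines by the test of the difference for 7 members. As MeWo minus A101D on the log2 scale, these differences were -1.97 for PMAIP1, -1.47 for BCL2L1, -0.30 for BBC3, -0.29 for MCL1, -0.24 for BCL2, 0.39 for BAX and 0.24 for BAK1. For BCL2 the sets moved up in A101D and down in MeWo, and for the other 6 the A101D response was the larger in size.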

How the results depend on the processing

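Of 1534 member log2 fold changes under alternative settings, 1437 kept their direction and their side of the threshold, 82 lost the call, 4 gained it and 11 changed sign. No value of PMAIP1 or BCL2L1 for the A101D sets or the difference between lines was among those that changed. Testing against a 1.5-fold change left 5, 3, 0, 2 and 5 members for the lines, the A101D sets, the MeWo sets, the difference and the lines in libraries 1-4, and 8043, 3912, 4, 2145, 9030 and 10959 of all genes for these and the lines in libraries 5-8, against 15207, 14141, 2976, 10601, 17133 and 18168. Without the low-count filter 2 members passed in MeWo, where PMAIP1 (adjusted p = 0.0510) and BAX (adjusted p = 0.0827) lost the call. That setting also lost the BBC3 difference between lines (adjusted p = 0.0640). In A101D it lost the calls of BCL2 (adjusted p = 0.0762), BCL2A1 (adjusted p = 0.0939) and BIK (adjusted p = 0.10013). With limma-trend, BCL2A1 (adjusted p = 0.0757) and BIK (adjusted p = 0.0598) lost the call in A101D. On total counts, BCL2 (adjusted p = 0.101) and BAX (adjusted p = 0.0727) lost the call in MeWo. The A101D call of BCL2A1 was lost on total counts (adjusted p = 0.34996) and with upper-quartile factors over the filtered genes (adjusted p = 0.157). Leaving out 1 library gave 2 to 4 members in MeWo (4 with all), BCL2L1 from -0.0505 to 0.005 there (0.02 on total counts), the BCL2A1 difference between lines from -0.0034 (without A101D replicate 5) to 0.13, and BIK between lines in libraries 1-4 from -0.38 to 0.13. Upper-quartile and TMM factors over all genes with a count were added after seeing the data. The former shifted the median of all genes by 0.50 between the lines and by -0.11 between the A101D sets. It turned the sign of MCL1 (0.20 over all libraries, 0.32 and 0.0722 within sets), BCL2L11 (0.0585 and 0.18) and BIK (0.36 in libraries 1-4). It also lost the calls of PMAIP1 and BCL2L11 between lines in libraries 1-4 (-0.0944 and -0.0811), of BIK between lines over all libraries (-0.07) and in libraries 5-8 (-0.47), of BCL2 (0.0095, adjusted p = 0.897) and BIK (0.50, adjusted p = 0.0916) between the A101D sets, and the BBC3 difference (-0.26, adjusted p = 0.0515). The latter lost the A101D calls of BCL2 (0.05, adjusted p = 0.433) and BIK (0.54, adjusted p = 0.0701) and the BBC3 difference (-0.25, adjusted p = 0.0525). The cause was not tested. The share of higher genes among those called was 45.67% for the MeWo sets, and 34.83%, 66.31%, 18.94% and 35.04% with median-of-ratios factors, total counts and the 2 added factors. For the A101D sets it was 52.12%, and 41.97% with the added upper-quartile factors, 59.54% on total counts, 56.8% with upper-quartile factors over the filtered genes and 45.23% with the added TMM factors. For the lines over all libraries, in 1-4 and in 5-8 it was 48.79%, 46.61% and 47.14%, and 69.37%, 66.79% and 65.19% with the added upper-quartile factors.

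Same-numbered libraries of the lines correlated at 0.053 to 0.175 in their deviations from the line means, and not every library matched its own number best. These deviations also hold the difference between the sets. In deviations from the set means the same-numbered correlations were -0.029 to 0.093, and replicates 2, 4 and 8 matched their own number best. Such weak correlations do not show a pairing by number and cannot exclude it. With the replicate block, 10, 7, 9 and 10 members passed for the lines, the difference and the lines in 1-4 and in 5-8, as without it, and 15327, 10644, 17140 and 18162 of all genes. Tests by count models (edgeR and DESeq2) were not run.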
